A study of Mus musculus with 6 samples.

Results

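The genes described here are 34 genes of ribosome biogenesis, chosen by name as a measure of growth activity and found by symbol among 47561 rows of RNA-seq values from mouse bone marrow neutrophils. Each of the 34 symbols had 1 row, and all 34 passed the filter on low counts, as did 15778 rows in all. The neutrophils came from wild-type male mice and were isolated by flow cytometry. Control mice (3 libraries) were compared with mice taken through chronic unpredictable mild stress (CUMS, 3 libraries), a paradigm of changing mild stressors that lasted 4 weeks here. The labels name no strain, age, sorting gate or animal behind a library, nor how Control mice were handled. The p-values therefore measure only the spread between these libraries, part of which may be technical.

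Ribosomes are built in the nucleolus. RNA polymerase I transcribes one long precursor RNA, small nucleolar RNA-protein particles (snoRNPs) guide its chemical modification, and a large set of assembly factors folds, cuts and packs it with ribosomal proteins into a small and a large subunit. Growing and dividing cells spend much of their energy on this pathway, the transcription factor Myc is known to drive many of its genes, and granulocytes shut most of it down as they mature from dividing precursors into post-mitotic neutrophils.

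The promoter sequences of the members are shown first, because their selection by name did not use these sequences. RefSeq starts on GRCm38.p6 were found for 29 of the 34 members (37 starts, since some genes have several), each read from 250 bases before to 50 bases after the start. Bop1, Fbl, Npm1, Rrp12 and Rrs1 had no entry. The E-box CACGTG, the motif that Myc with its partner Max is known to bind, was present in 5 of the 29 members (17.2%) and in 8.09% of all 27025 genes with such a sequence. The windows below give each of these E-boxes in capitals with up to 12 bases on either side, on the strand of the gene. No binding was measured at them. In Pes1, Utp20 and Wdr43 the E-box lies just after the start, and in Nop2 and Rrn3 before it.
Nop2, chr6:125131811-125131840, plus strand: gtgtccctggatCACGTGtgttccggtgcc
Rrn3, chr16:13780472-13780501, plus strand: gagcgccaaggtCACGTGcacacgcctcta
Rrn3, chr16:13780639-13780668, plus strand: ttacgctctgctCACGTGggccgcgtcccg
Pes1, chr11:3963965-3963994, plus strand: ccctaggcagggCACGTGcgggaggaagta
Wdr43, chr17:71616220-71616249, plus strand: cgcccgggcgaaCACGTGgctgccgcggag
Utp20, chr10:88826765-88826789, minus strand: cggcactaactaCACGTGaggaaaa

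The GC box GGGCGG, searched on both strands, stood in 22 of 29 members (75.9%) against 38.2% of all genes, and CCGGAAG, the core bound by ETS factors, in 9 of 29 (31.0%) against 9.93%. CCAAT was found in 9 of 29 (31.0%) against 41.1%. These are letter matches and not shown binding sites, and the background was not limited to genes expressed in these libraries. The upstream sequences of Polr1a and Ncl, both abundant members, are printed for comparison, with every match to these motifs in capitals. Polr1a was the 1 member past the threshold, a call that several alternatives given below did not keep. Polr1a held 1 CCAAT, which begins 31 bases before the start, and no GC box, while Ncl held 3 GC boxes, written as CCGCCC on the strand shown. A CCAAT without a GC box was not particular to Polr1a: Dkc1 and Rrp9, which were not called, had the same.
Polr1a, chr6:71908803-71909052, plus strand: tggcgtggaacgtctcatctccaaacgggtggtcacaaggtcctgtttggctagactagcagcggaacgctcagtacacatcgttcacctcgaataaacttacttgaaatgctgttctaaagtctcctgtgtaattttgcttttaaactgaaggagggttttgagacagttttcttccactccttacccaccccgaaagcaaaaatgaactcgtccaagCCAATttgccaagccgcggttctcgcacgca
Ncl, chr1:86359456-86359705, minus strand: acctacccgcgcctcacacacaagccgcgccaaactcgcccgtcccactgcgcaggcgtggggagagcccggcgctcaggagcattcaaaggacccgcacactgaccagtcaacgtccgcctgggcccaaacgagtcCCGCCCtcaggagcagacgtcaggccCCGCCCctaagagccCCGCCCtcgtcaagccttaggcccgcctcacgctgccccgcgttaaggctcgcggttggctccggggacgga

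The deposited values are estimated counts that sum to 78845457 to 109757558 per library, or 19711364 to 27439390 read pairs at about 4 counts a pair. Levels below are CPM, the usual depth-scaled unit, with TMM scaling between libraries. The neutrophil genes Ly6g (454 ± 22.7 CPM in Control and 434 ± 55.8 in CUMS), Csf3r (4331 ± 44.0 and 4668 ± 192) and S100a8 (19254 ± 455 and 15118 ± 4110; SD, n = 3 each) were abundant in both groups, none of them past the threshold. Of 10 defining neutrophil genes 1 rose (Mmp9) and 2 fell (Camp and Ltf). Markers of other cells were present too and moved between the groups. Of 18 erythroid markers 8 rose and 0 fell (background of rises 2.36% of all genes), and their summed level was 1328 to 1899 CPM in Control libraries and 2554 to 3038 in CUMS libraries. Of 30 cell division genes 18 fell and 0 rose (background of falls 2.14%), with sums of 739 to 788 CPM in Control and 544 to 566 in CUMS. Of 12 B cell markers 1 rose (184 to 189 against 227 to 234 CPM), of 14 monocyte markers 3 rose (729 to 771 against 698 to 788), of 9 eosinophil markers 2 rose (44.9 to 51.9 against 51.6 to 60.3), and of 12 early granulocyte precursor genes 2 rose (243 to 256 against 234 to 259). All 9 eosinophil markers had higher estimates in CUMS (median log2 fold change 1.44), 5 of them at an unadjusted p under 0.05 with edgeR. All 12 B cell markers had higher estimates too (median 0.29). Of 8 plasma cell markers, 7 of which were tested, 1 fell (85.4 to 87.3 against 70.5 to 76.1), with Tnfrsf17 at 0 in every library, and of 5 tested T and NK cell markers 0 passed with edgeR (0 at an unadjusted p under 0.05). The part of these other cells in the results below was not tested. In bulk RNA, fewer cells of a type and less RNA per cell cannot be told apart.

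Ribosome biogenesis genes were mostly expressed at a low level in these neutrophils, and stress left nearly all of them without a detectable change. Polr1a, the catalytic subunit gene of RNA polymerase I, was the one member that passed the test, and it was 1.17-fold higher in CUMS. No member was called lower. The called share of the members (1 of 34, 2.94%) stands beside a background of 4.5% of all genes tested (2.36% higher and 2.14% lower), so it was not above that of genes at large. The other 33 members had adjusted p-values from 0.113 to 0.997 (edgeR quasi-likelihood test, Benjamini-Hochberg over 15778 genes).

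The members leaned toward lower values in CUMS by small amounts. The log2 fold change was negative for 23 of 34 members (67.6%, against 51.6% of all genes tested), and its median was -0.10 against -0.01 over all genes. An unadjusted p under 0.05 was seen for 7 members (20.6%, against a background of 16.9%). The libraries of the groups did not overlap for 11 members (32.4%, against 22.9%), 8 of them lower in CUMS (background 11.5%) and 3 higher (background 11.5%). The 8 were Nolc1, Wdr75, Heatr1, Bysl, Pes1, Wdr12, Ebna1bp2 and Ftsj3, and the 3 were Polr1a, Ncl and Nip7. In the same libraries the cell division genes had a median of -0.66 and the erythroid markers one of 0.82.

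**Figure D1:**
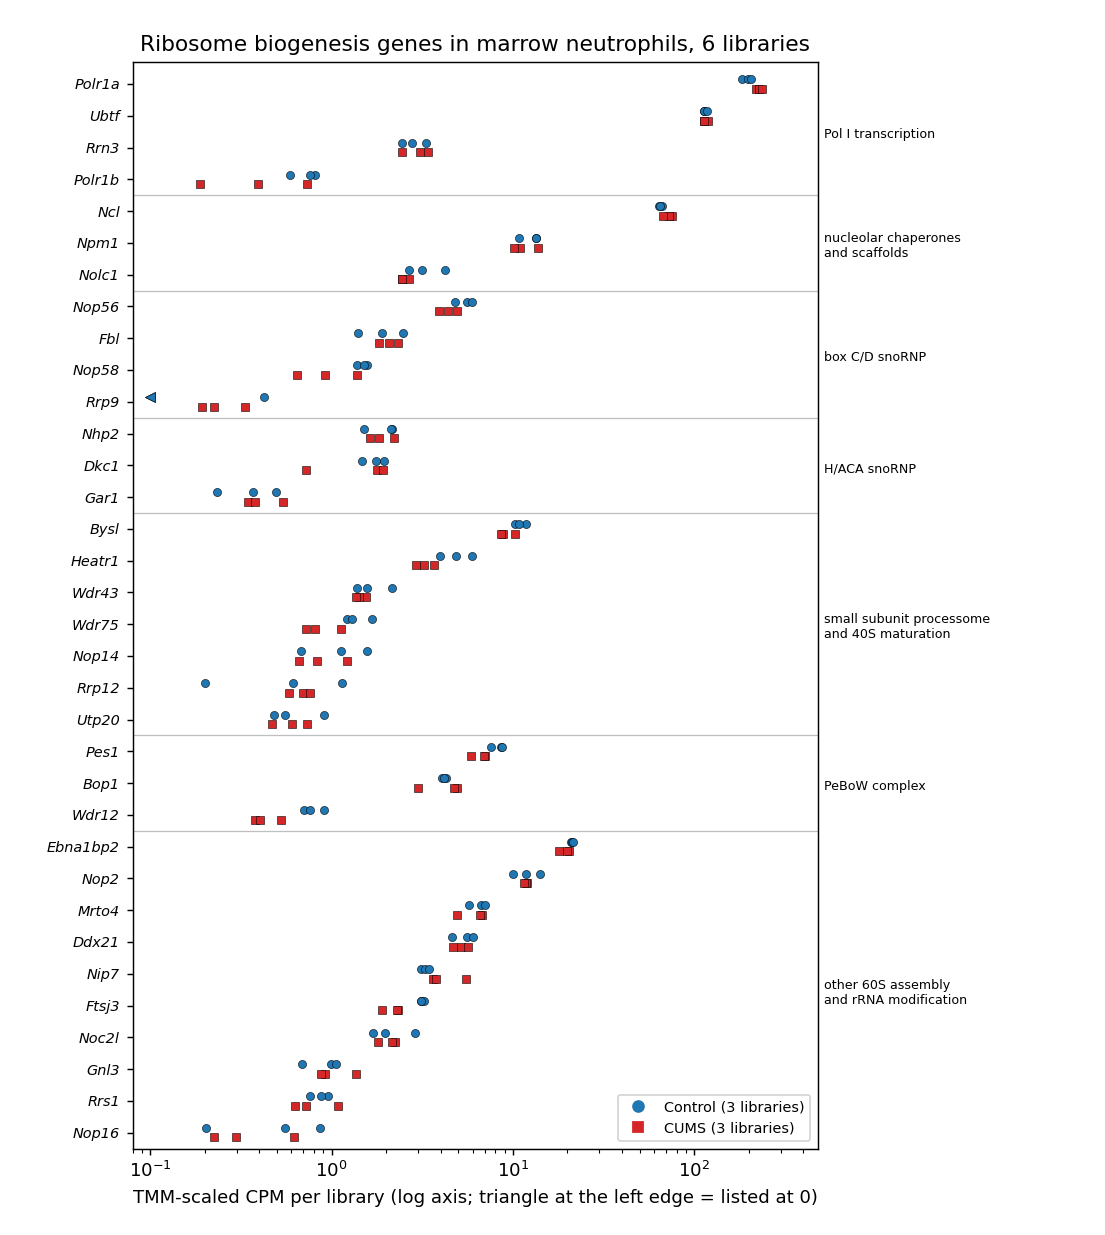
TMM-scaled CPM (log axis) of the 34 members in each library, grouped by role; blue circles are the 3 Control and red squares the 3 CUMS libraries, and the triangle marks Rrp9 listed at 0 in Control replicates 1 and 3. Polr1a, Ubtf and Ncl sit far to the right of the others, and most members overlap between the groups.

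Levels differed widely between members. Polr1a, Ubtf and Ncl together held 74.1% to 79.6% of the members' summed CPM, 9 members averaged under 1 CPM, 18 between 1 and 10 CPM, and 7 above 10 CPM. Genes were compared per kilobase of annotated exon, taken as the union over transcripts, which understates a gene whose expressed transcript is shorter. The members had a median of 0.642 CPM per kb, against 2.14 over the 13830 tested genes with a known length. Of the 34, 25 lay below that median of all tested genes. The highest in Control were Ubtf (17.6 CPM per kb), Polr1a (16.5), Ncl (6.38), Ebna1bp2 (5.97), Npm1 (4.71) and Nop2 (4.33). The lowest were Rrp9 (0.0484), Utp20 (0.0635) and Wdr12 (0.0663). Wdr12 ranks there by its union length of 11955 bases: in Control CPM (0.792) it lay above Gar1 (0.366) and Nop16 (0.541). Counting error is large at such levels. Rrp9 was listed at 0 in Control replicates 1 and 3 and at 44 counts in Control replicate 2, with 19, 37 and 21 counts in CUMS replicates 1 to 3. For a count of 0, the upper 95% limit from counting error is about 12 counts (3 read pairs).

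RNA polymerase I genes came first in the pathway and showed the one call. Polr1a (chromosome 6, 71909053 to 71984935, plus strand, GRCm38), whose promoter is printed above, measured 183, 197 and 205 CPM in Control replicates 1 to 3 and 220, 229 and 238 CPM in CUMS replicates 1 to 3. All 3 CUMS libraries lay above all 3 Control libraries, although the highest Control and the lowest CUMS library were close. The means were 195 ± 11.1 and 229 ± 8.85 CPM (SD, n = 3 each), with a log2 fold change of 0.23 ± 0.051 (SE; 95% interval 0.12 to 0.34) and an adjusted p of 0.024 from edgeR. The call ended without Control replicate 1 (log2 fold change 0.19, adjusted p = 0.059), without Control replicate 2 (0.24, 0.084), without CUMS replicate 2 (0.23, 0.094), without CUMS replicate 3 (0.21, 0.14) and when genes with low counts were not filtered out (0.24, 0.055), the direction being kept each time. Over all 12 alternatives its adjusted p ran from 2.3e-04 to 0.14.

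The other 3 polymerase I members did not pass the test. Ubtf, which encodes the upstream binding factor that keeps the rRNA genes open for transcription, measured 114, 114 and 118 CPM in Control and 113, 120 and 113 CPM in CUMS. The groups overlapped, and the log2 fold change was 0.00072 ± 0.045, with a 95% interval of 0.934-fold to 1.07-fold. Rrn3, the initiation factor that recruits the polymerase in growing cells and carries a pair of the E-boxes printed above, averaged 2.84 ± 0.435 CPM in Control and 2.97 ± 0.489 CPM in CUMS (log2 fold change 0.07 ± 0.20, adjusted p = 0.93). Polr1b, the second largest subunit, was near the floor at 0.816, 0.590 and 0.766 CPM in Control and 0.392, 0.189 and 0.731 CPM in CUMS, with 5.25 to 19.8 read pairs per library (log2 fold change -0.72 ± 0.51, adjusted p = 0.54). The measured levels of these subunits of the same enzyme were very unequal: per kilobase of exon, Polr1a was 132-fold above Polr1b in Control. That ratio rests on few Polr1b read pairs and on union exon lengths. Which transcripts gave the Polr1a reads was not examined.

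Of 12 other polymerase I genes tested with edgeR, 0 passed (1 at an unadjusted p under 0.05, and 0 of the same 12 with DESeq2), with 7 higher and 5 lower and a median log2 fold change of 0.01. Polr1a shares 185 exonic bases with Gm26628, a transcript on the opposite strand, whose level was 3.63 ± 0.718 CPM in Control libraries and 3.95 ± 0.363 CPM after stress (adjusted p = 0.82); this neighbour and those named further on were chosen after their values were seen.

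Ncl, Npm1 and Nolc1 encode abundant nucleolar chaperones and scaffolds. Ncl (nucleolin, which binds the precursor RNA and the rRNA genes) measured 66.3, 64.1 and 64.7 CPM in Control and 75.9, 72.2 and 67.3 CPM in CUMS. Every CUMS library lay above every Control library, but the gap was narrow and the gene did not pass (log2 fold change 0.14 ± 0.055, 95% interval 0.021 to 0.26, adjusted p = 0.21). Npm1 (nucleophosmin, which shuttles ribosomal particles and histones) averaged 12.6 ± 1.49 CPM and 11.6 ± 1.88 CPM (adjusted p = 0.77), with groups that overlapped; it has processed pseudogene copies that can take its reads, so its level is uncertain. Nolc1, a scaffold for snoRNPs and polymerase I, averaged 3.35 ± 0.788 and 2.52 ± 0.134 CPM, with CUMS replicate 2 at the level of Control replicate 2 (log2 fold change -0.41 ± 0.20, adjusted p = 0.35). Neither Ncl nor Nolc1 passed the threshold.

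The snoRNP proteins were low in both groups. Box C/D particles, which guide ribose methylation, are built from Fbl (fibrillarin, the methyltransferase), Nop56 and Nop58, and Rrp9 binds the U3 particle that is needed for the first cuts. Nop56 measured 4.81, 5.61 and 5.93 CPM in Control and 4.38, 3.89 and 4.92 CPM in CUMS, so that 1 CUMS library reached into the Control range (log2 fold change -0.31 ± 0.15, adjusted p = 0.33). Nop58 had a log2 fold change of -0.60 ± 0.32, Fbl one of 0.11 ± 0.25 and Rrp9 one of 0.78 ± 1.29, whose interval of -2.04 to 3.61 leaves its direction undetermined. H/ACA particles, which guide pseudouridylation, contain Dkc1 (dyskerin, the pseudouridine synthase), Gar1 and Nhp2. Dkc1 measured 1.47, 1.76 and 1.96 CPM in Control and 0.724, 1.77 and 1.93 CPM in CUMS; CUMS replicate 1 alone stood apart (log2 fold change -0.22 ± 0.34, adjusted p = 0.82). Leaving it out, the Dkc1 estimate turned positive, at 0.10. Gar1 and Nhp2 had log2 fold changes of 0.21 ± 0.53 and -0.03 ± 0.23.

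**Figure D2:**
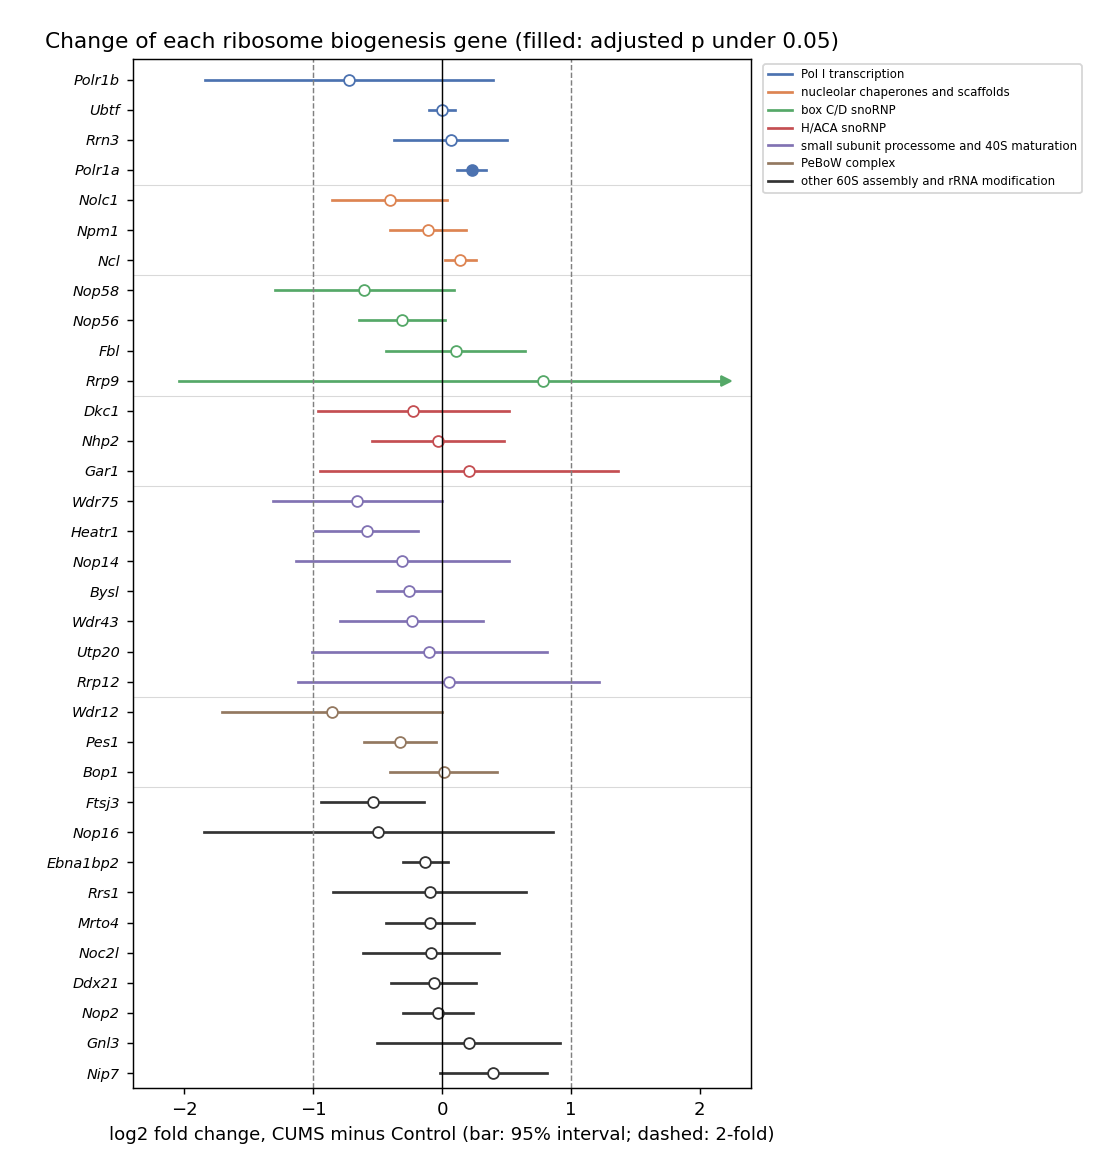
Log2 fold change (CUMS minus Control) of each member with its 95% interval, coloured by role; the filled point is Polr1a, the one member past an adjusted p of 0.05, and dashed lines mark a 2-fold change. The intervals of Polr1a, Ubtf and Ncl are narrow, while those of the rarest members, such as Rrp9 (drawn to the edge), reach beyond 2-fold.

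The small subunit processome folds and cuts the precursor of the small subunit, and 7 members act in it or in later small subunit maturation. Of these 7, 6 were lower in CUMS (against 51.6% of all genes), 3 of them without overlap (against 11.5% of all genes), and 0 passed with edgeR (2 at an unadjusted p under 0.05). DESeq2 gave an adjusted p to 3 of them (Wdr43, Heatr1 and Bysl) and called 0. Their summed level was 23.2, 19.5 and 21.7 CPM in Control and 16.6, 18.4 and 16.1 CPM in CUMS, a description to which no test was applied. Every CUMS sum was below every Control sum. Cell division genes were lower in the same CUMS libraries, as given above.

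Heatr1, which links polymerase I transcription to processing, measured 4.86, 3.96 and 5.98 CPM in Control and 3.24, 3.68 and 2.94 CPM in CUMS. Its groups did not overlap, and the Control libraries were spread more widely than the CUMS libraries. The log2 fold change was -0.58 ± 0.18 (95% interval -0.99 to -0.18), the unadjusted p 0.0083 and the adjusted p 0.11. Wdr75 averaged 1.39 ± 0.241 CPM in Control and 0.886 ± 0.214 CPM in CUMS (log2 fold change -0.66 ± 0.30, adjusted p = 0.30). Bysl, a factor of late small subunit maturation, measured 11.9, 10.3 and 10.8 CPM and then 8.78, 10.2 and 8.62 CPM, nearly touching (-0.26 ± 0.11, adjusted p = 0.28). Wdr43, Nop14 and Utp20 had log2 fold changes of -0.24, -0.31 and -0.10, and Rrp12, which helps export of the particles, one of 0.05, all with groups that overlapped.

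Heatr1, Wdr43 and Wdr75 belong to a subcomplex of the processome (the transcription-linked UTP proteins) with Utp4, Utp15 and Nol11, genes chosen for naming after values were seen. Utp4 averaged 2.78 ± 0.504 CPM in Control and 1.67 ± 0.226 CPM in CUMS (log2 fold change -0.73 ± 0.22, adjusted p = 0.0995). Utp15 had a log2 fold change of 0.48 ± 0.23 and Nol11 one of 0.06 ± 0.20, so the 6 genes of this subcomplex had estimates in both directions and none passed. Among the 44 small subunit factors that are no members, 0 passed with edgeR (5 at an unadjusted p under 0.05, and 0 of the 37 with an adjusted p from DESeq2), 23 were higher and 21 lower, and the median was 0.02. By these counts and this median the longer list leaned in neither direction. Its summed level was 454 to 466 CPM in Control libraries and 474 to 495 CPM in CUMS libraries. That sum was higher in CUMS without overlap, unlike the sum of the 7 members, and it was not tested. Sums of the non-member large subunit factors were lower in CUMS, barely without overlap (511.15 to 526.38 CPM in Control, 491.29 to 511.08 in CUMS). Those of the non-member snoRNP genes (59.7 to 61.9 and 52.7 to 55.7) and exosome genes (140.5 to 145.1 and 135.6 to 138.5) were lower too. The sums of the other polymerase I genes overlapped (118 to 125 and 113 to 129), and none of these sums was tested. Opposite-strand neighbours share exonic bases with Bysl (361 with Ccnd3, at 523 ± 15.9 and 477 ± 16.3 CPM in Control and CUMS) and with Heatr1 (155 with Lgals8, at 37.1 ± 0.806 and 37.1 ± 1.14 CPM). Without strand, reads on those bases cannot be told apart, and the estimates of Bysl and Heatr1 carry that uncertainty. In all, 12 members share exonic bases with a tested gene. Among them are Dkc1 (45 with Mpp1, at 111 ± 6.26 CPM in Control) and Bop1 (50 with Mroh1, at 106 ± 0.788 CPM in Control).

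Factors of large subunit assembly made up the last 13 members. Pes1, Bop1 and Wdr12 form the PeBoW complex, which is needed to process the precursor of the large subunit. Pes1 measured 8.65, 7.58 and 8.72 CPM in Control and 5.89, 7.04 and 6.94 CPM in CUMS, with no overlap (log2 fold change -0.33 ± 0.13, 95% interval -0.61 to -0.048, adjusted p = 0.21). Wdr12 averaged 0.792 ± 0.107 and 0.437 ± 0.0788 CPM, also without overlap (-0.85 ± 0.39, adjusted p = 0.29), on 8 to 23.5 read pairs per library. Bop1 averaged 4.18 ± 0.0979 CPM in Control and 4.21 ± 1.04 CPM in CUMS (0.01 ± 0.19, adjusted p = 0.99), where CUMS replicate 1 was below and CUMS replicates 2 and 3 above all Control libraries. The direction of Bop1 was not resolved: its estimate ran from -0.11 without CUMS replicate 2 to 0.20 without CUMS replicate 1.

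Of the other 10 large subunit and modification factors, 8 were lower and 2 higher in CUMS. Ftsj3, an rRNA methyltransferase, measured 3.11, 3.23 and 3.12 CPM in Control and 2.34, 2.28 and 1.91 CPM in CUMS. The Control libraries were nearly equal and all above the CUMS libraries, yet at 49.2 to 83.5 read pairs per library the difference did not pass (log2 fold change -0.54 ± 0.18, 95% interval -0.94 to -0.14, unadjusted p = 0.013, adjusted p = 0.14). Ebna1bp2, an early assembly factor and the most abundant of these genes by CPM, averaged 21.2 ± 0.274 and 19.4 ± 1.31 CPM (-0.13 ± 0.078, adjusted p = 0.46). Nip7, which takes part in late precursor processing, averaged 3.27 ± 0.166 and 4.32 ± 1.07 CPM (0.40 ± 0.19, adjusted p = 0.32), its CUMS mean being raised by CUMS replicate 1 at 5.55 CPM. Leaving that library out gave Nip7 a log2 fold change of 0.18 (adjusted p = 0.69).

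The remaining members of this group lay close to 0 or were measured too coarsely. Nop2, an rRNA cytosine methyltransferase whose promoter holds an E-box, measured 14.1, 10.1 and 11.8 CPM in the Control libraries and 11.9, 11.8 and 11.6 CPM in the CUMS libraries, with a log2 fold change of -0.03 ± 0.12. Ddx21 (an RNA helicase, -0.06), Noc2l (-0.08), Mrto4 (-0.09) and Rrs1 (-0.10) had estimates of that order. Gnl3 (nucleostemin, a GTPase gene of stem and dividing cells) had a log2 fold change of 0.21 ± 0.32, and Nop16 one of -0.49 ± 0.62 at 4.75 to 17.0 read pairs per library.

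**Figure D3:**
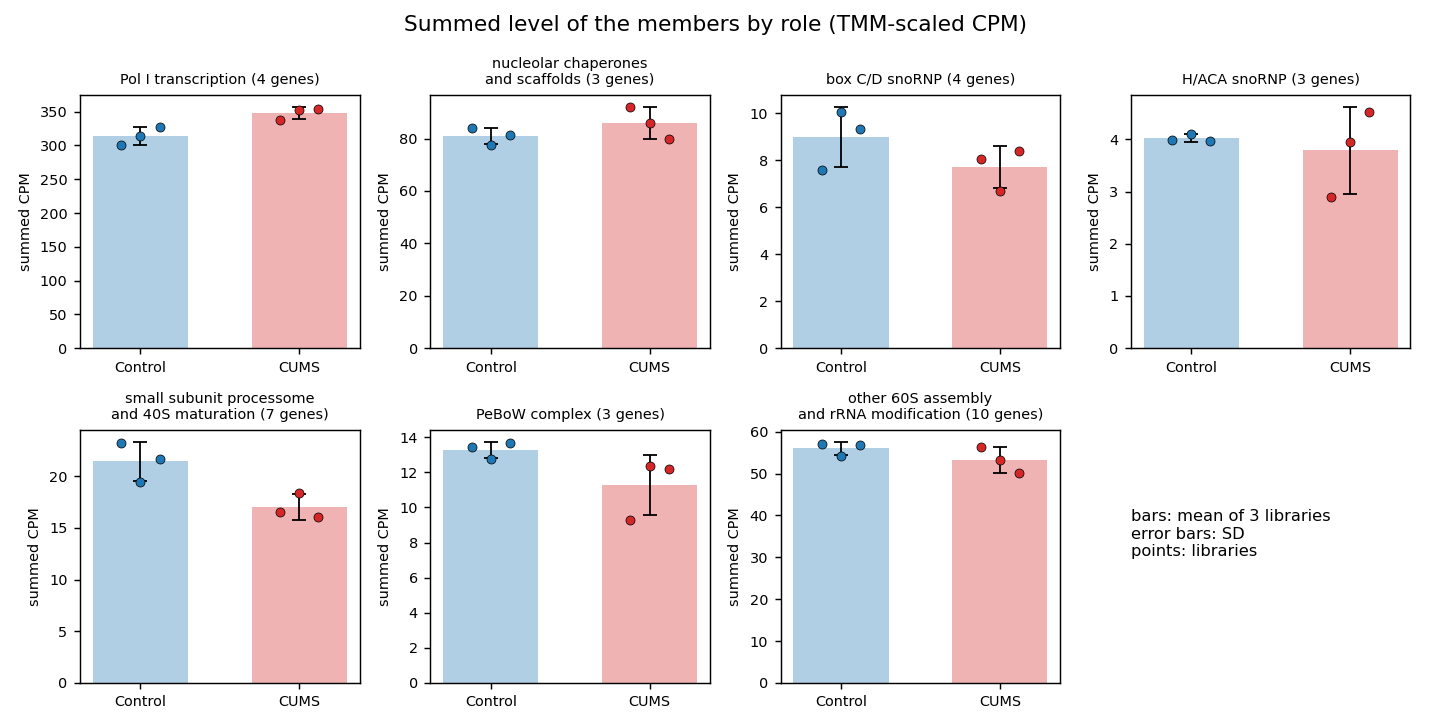
Summed TMM-scaled CPM of the members of each role; bars are means of 3 libraries, error bars SD and points the libraries, with every axis starting at 0. Polymerase I genes, which Polr1a and Ubtf dominate, sum to more in every CUMS library. The 7 small subunit genes, which Bysl and Heatr1 dominate, and the PeBoW genes sum to less in every CUMS library. The sums of the other roles overlap.

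Summed over all 34 members, the level was 490, 492 and 514 CPM in the Control libraries and 522, 533 and 525 CPM in the CUMS libraries. Without Polr1a, Ubtf and Ncl the other 31 summed to 123 ± 5.34 and 111 ± 3.01 CPM (SD, n = 3 each). The sum over all members was thus higher and the sum without the 3 abundant genes lower in CUMS. The sums of the 31 were 127, 117 and 126 CPM in Control and 113, 112 and 107 CPM in CUMS, without overlap; no test was applied to sums over members. CUMS replicate 3 held the lowest value of 11 members and CUMS replicate 1 that of 7, and Control replicate 1 the highest of 9.

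The intervals show what these libraries could resolve. For 24 of 34 members the 95% interval lay within 2-fold in both directions, and for 12 of them within 1.5-fold. For the other 10, among them Polr1b, Nop58, Rrp9, Gar1 and Wdr12, a change of 2-fold was not excluded, and an absence of change cannot be read from their p-values.

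Other genes of the pathway and of growth control were counted by list. Of 50 large subunit factors tested that are no members, Rrp1b, a nucleolar protein of rRNA processing, fell: its level of 6.57 ± 0.641 CPM in Control was 4.23 ± 0.108 CPM after stress (-0.64 ± 0.14 on the log2 scale, adjusted p = 0.022), 0 rose, and the median was -0.05. Leaving out any single library other than Control replicate 1 ended the Rrp1b call, with adjusted p-values of 0.058 to 0.1. Of 11 snoRNP assembly and core genes tested with edgeR 0 passed (2 at an unadjusted p under 0.05), with 9 of the 11 lower and a median of -0.28. DESeq2 called 0 of the 5 to which it gave an adjusted p. Of 15 exosome and nuclease genes tested with edgeR 0 passed (2 at an unadjusted p under 0.05), with 12 of the 15 lower and a median of -0.08. DESeq2 called 0 of the 12 to which it gave an adjusted p. Of 12 noncoding snoRNA host transcripts tested with edgeR 0 passed (1 at an unadjusted p under 0.05), with 10 of the 12 higher and a median of 0.08. DESeq2 called 1 lower of the 4 to which it gave an adjusted p.

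Upstream of the pathway, Myc transcript was at the limit of detection. Myc was listed at 0, 20 and 25 counts in Control and 20, 43 and 36 counts in CUMS, or at most 0.387 CPM (log2 fold change 0.96 ± 0.96, adjusted p = 0.71). Its partner Max and its antagonist Mxd1, which takes Max away from Myc in maturing cells, were abundant. Max rose from 439 ± 14.7 to 491 ± 14.4 CPM (0.16 ± 0.041, adjusted p = 0.048), and Mxd1 fell from 2557 ± 20.0 to 2332 ± 39.1 CPM (-0.13 ± 0.031, adjusted p = 0.032). Neither call held with every library left out in turn. That of Max ended without any of Control replicates 2 and 3 and CUMS replicates 1, 2 and 3 (adjusted p 0.089 to 0.17, edgeR). That of Mxd1 ended without any of Control replicates 2 and 3 and CUMS replicates 2 and 3 (0.088 to 0.17). With a library left out the estimates stayed at 0.14 to 0.19 for Max and -0.14 to -0.12 for Mxd1. Such fits called 305 to 697 genes in all, against 710 with all libraries. Both calls also ended without a filter on low counts (0.071 and 0.098). With edgeR the other 8 of the 10 Myc network genes tested did not pass. Of the 10, 5 had an unadjusted p under 0.05, against a background of 16.9% of all genes. DESeq2, which gave 9 of the list's genes an adjusted p, called 1 higher and 2 lower.

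Further growth lists gave few calls. With edgeR, 0 of 21 mTORC1 genes passed (3 at an unadjusted p under 0.05, median -0.01), as did 0 of 22 genes of nucleotide and polyamine synthesis (1 at an unadjusted p under 0.05, median -0.06). DESeq2 called 1 of 19 mTORC1 genes higher and 0 of 13 nucleotide genes, the numbers to which it gave an adjusted p. Of 30 translation factors Eif5, a factor of start codon selection, rose from 359 ± 13.1 to 427 ± 9.62 CPM (0.25 ± 0.041, adjusted p = 0.0054 with edgeR), and 0 fell. In that list 21 were lower, with a median of -0.07. An unadjusted p under 0.05 was seen for 10 of the 30, against a background of 16.9% of all genes. DESeq2 called 2 of the translation factors higher and 1 lower.

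**Figure D4:**
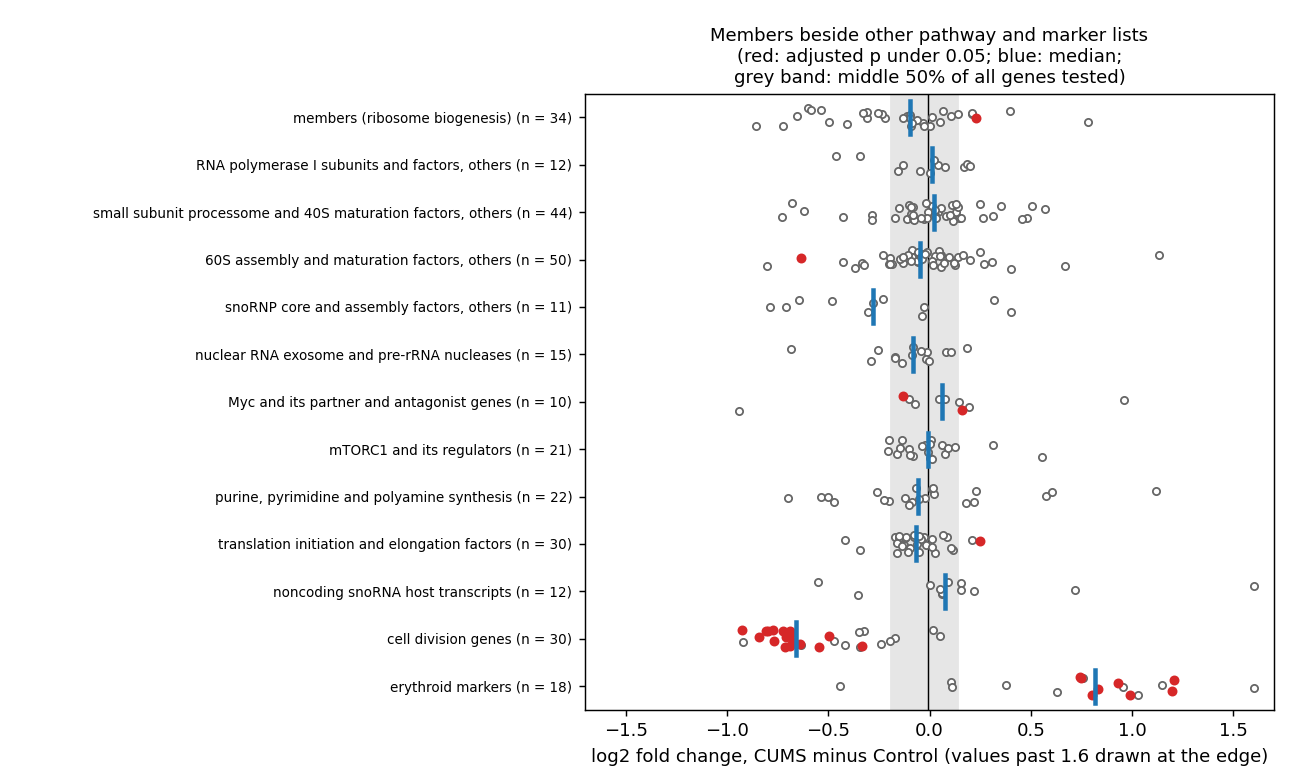
Log2 fold change (CUMS minus Control) of the members and of each other list; points are genes, red where the adjusted p was under 0.05, blue bars are medians and the grey band holds the middle of all genes tested. The members centre near -0.10 with 1 red point, whereas 18 of 30 cell division genes are red on the left and 8 of 18 erythroid markers on the right.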

How the data were processed

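RNA was measured in 6 libraries of bone marrow neutrophils (3 Control, 3 CUMS), prepared with an Illumina TruSeq kit and sequenced in pairs, per the labels' protocols, which do not state whether strand was kept. HISAT2 2.1, featureCounts 1.6.4 and mm10 are among the tools and builds in the submitters' processing notes, with no role given. The deposited values were taken as estimated counts, because multiples of 4 were over-represented among low values (the value 4 was 1.89 times as frequent as its neighbours), and 1588 rows carry identifiers of assembled transcripts. A read pair was thus worth about 4 counts, and floors cover counting error only.

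The whole-number values were analysed in R 4.3.3 with edgeR 4.0.16, using filterByExpr, TMM scaling and the quasi-likelihood F test on group. Adjusted p-values are Benjamini-Hochberg over all genes tested, at 0.05, and SE and 95% intervals were derived from the F statistic. The script was tested on simulated data. Of rows with the same symbol, that with most counts was kept. Exon lengths (union over transcripts) and positions come from GENCODE M21 on GRCm38 by symbol, and promoter sequences from RefSeq on GRCm38.p6. Alternatives were DESeq2 1.42.0, RLE and upper-quartile scaling, no filter on low counts, a replicate block, counts divided by 4 and each library left out. Members and lists were chosen with earlier results of these data known. All members were to be named, with the value of every library for those past the threshold and for the smallest p in each role; of other lists, at most 5 genes past the threshold, and Myc. Same-numbered libraries of the groups did not deviate together (correlations 0.0081, 0.0035 and -0.026 across genes), so the numbers were not treated as pairs.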

Additional observations from a re-analysis of the deposited data

How the results depend on the processing

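The count of members called higher was 1 with DESeq2 (22 members had an adjusted p), RLE scaling, upper-quartile scaling, the replicate block and counts divided by 4, and 0 without a filter on low counts. With each single library left out it ranged from 0 to 1, and the count called lower was 0 under every alternative run. With counts divided by 4, the filter kept 32 members and 12857 genes in all, and Rrp9 and Gar1 were not among them. With the replicate block 1 member was called higher and 0 lower, and 931 genes in all against 710 without it. The number of all genes called ran from 305 to 1158 over the alternatives. The count of members with a negative log2 fold change was 21 to 26 over the edgeR alternatives and 15 of 22 with DESeq2, and the median log2 fold change of the members stayed between -0.15 and -0.04. The log2 ratio of the members' summed level was 0.079 with TMM, 0.084 with RLE scaling, 0.085 with upper-quartile scaling and 0.079 with all rows of a symbol summed. Of the 34 members 22 averaged fewer than 100 read pairs per library, which limits what can be resolved.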
